A study of Drosophila melanogaster with 4 samples.

Results

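A set of 29 genes had higher values in both MEF2 RNAi libraries than in both w1118 libraries of fly thoraces, by at least 0.3 on the log2 scale, out of 13012 genes in the table. The members were chosen by this measured gap: in each library the median of all genes was subtracted, and the higher of the 2 w1118 values was then subtracted from the lower of the 2 MEF2 RNAi values. Symbols beginning with Att, Cec, Dpt, PGRP, Hsp, Cyp, Gst or Cpr, and Def, Dro, Drs, Mtk and w, were left out. Before that step 43 genes passed (0.33% of the table), and 14 of them were removed by symbol, 9 of which encode antimicrobial peptides. The remaining 29 genes are 0.223% of the table. With the genotypes exchanged, 10 genes passed (0.0769%).

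The 4 groups had 1 library each, from 8 dissected thoraces of females aged 10 days on a high calorie diet. They were Act88FGS>UAS-MEF2 RNAi flies fed RU486, the same genotype given the ethanol control, Act88FGS>w1118 flies fed RU486, and Act88FGS>w1118 flies given the ethanol control. Act88FGS is a GeneSwitch driver for thoracic flight muscle, carried by all 4 groups. GeneSwitch is a GAL4 fusion protein that switches on its target transgene only after flies take up the drug RU486, so the MEF2 RNAi flies without RU486 carry the hairpin transgene uninduced. The name MEF2 RNAi therefore stands for a genotype in what follows. The RNAi transgene and any other difference between the 2 stocks cannot be told apart in this design. The question behind the series is which genes of adult muscle depend on MEF2.

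MEF2 is a transcription factor of muscle that drives muscle differentiation in the embryo and stays active in adult flight muscle. A thorax also holds nerve endings, fat body, gut, trachea and circulating hemocytes, and RNA of all of these enters the library. The set crosses several kinds of gene: a subunit of the glutamate receptor of the neuromuscular junction, secreted peptides of the humoral immune and stress responses, secreted proteases, enzymes that act on lipids and carbonyl compounds, membrane transporters, and the mitotic cyclin CycB. In whole thoraces, a change in the number of cells of a type and a change of RNA per cell cannot be told apart.

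The deposited log2 values are centred gene by gene, so that the 4 values of a gene sum to 0. They hold no expression level, the depth of each library is unknown, and the labelled tissue could not be checked by the level of its marker genes. Because of the centring, a gene that is high in MEF2 RNAi flies has values of about the same size below 0 in w1118 flies, and the difference between libraries is the informative quantity. With 1 library per condition no difference has a replicate check, and the contrast of genotypes chose the genes, so no test was made and the values below are descriptions. The library medians as deposited were -0.18 and 0.19 in the MEF2 RNAi libraries with and without RU486, against 0.17 and -0.18 in the w1118 libraries with and without it. Subtracting them raised every difference between MEF2 RNAi and w1118 flies with RU486 by 0.35 and changed every difference without RU486 by -0.37. The mean of the 2 differences moved by -0.010. Differences between flies with and without RU486 were changed likewise, by 0.36 in the MEF2 RNAi genotype and -0.35 in w1118, so how close the libraries of a genotype lie depends on this step. Unless stated, all values below are log2 values relative to the library median.

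Over the 29 genes, the genotype difference (mean of the MEF2 RNAi libraries minus mean of the w1118 libraries) ran from 0.33 to 1.27 with a median of 0.53, which is a 1.45-fold difference. Over all genes it ran from -1.15 to 1.27 with a median of -0.0069. A difference of at least 2-fold was reached by 3 members (CG3397, CG34227 and CycB) of the 9 genes that reached it in the table, and one of at least 1.5-fold by 12 of 44. Values of the MEF2 RNAi flies lay above those of the w1118 flies without overlap in 9.45% of all genes and below them in 9.22%. The median difference of the members was 0.55 with RU486 and 0.55 without it. As deposited, these medians were 0.20 and 0.92, so the even values come from the subtraction of the library medians. Taken alone, a difference of at least 0.3 with RU486 was found in 14.4% of all genes and one of -0.3 or below in 2.84%. Without RU486 these shares were 2% and 19.2%. All these shares hold relative to the library median only. Its subtraction moved every difference by 0.35 with RU486 and by -0.37 without it. As deposited, the difference with RU486 was above 0 in 6.37% of all genes.

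**Figure D1:**
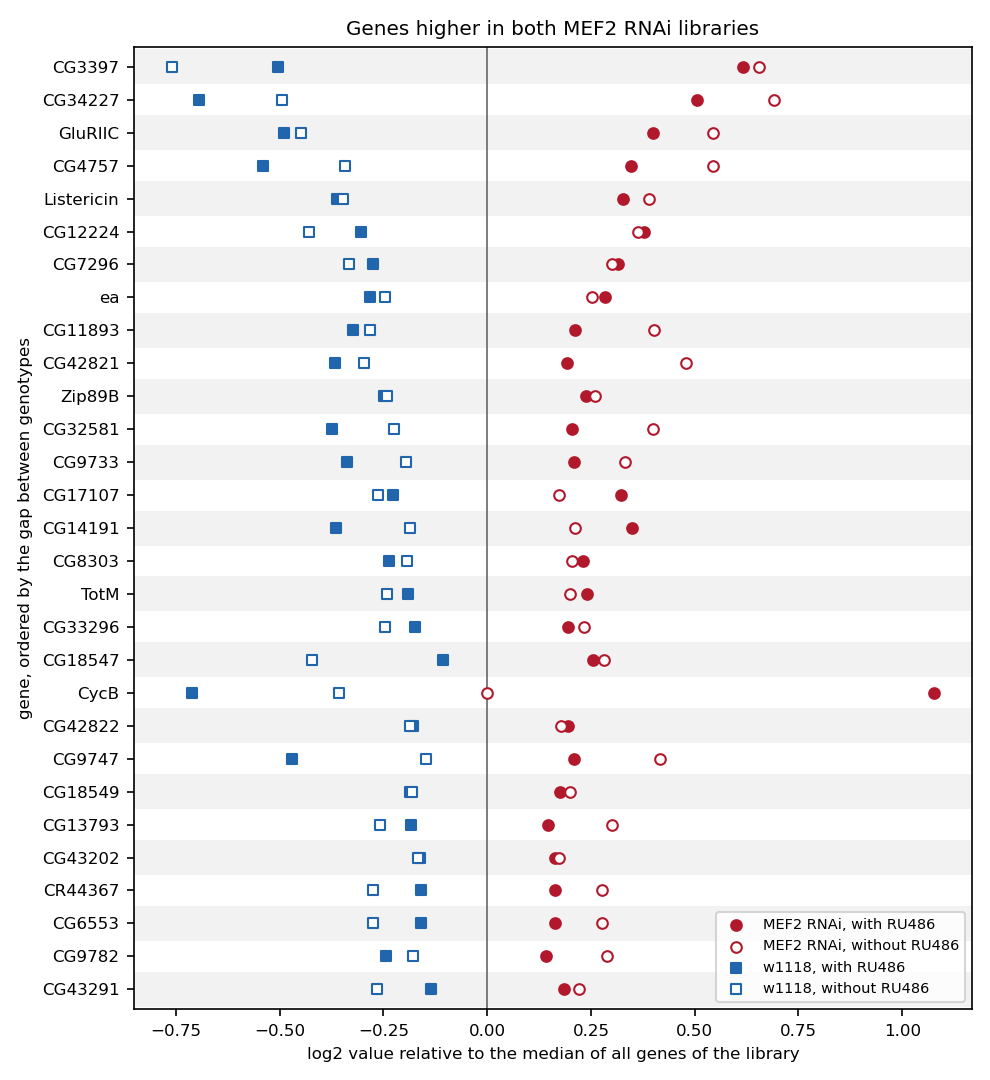
Values of the 29 genes in the 4 libraries (log2, relative to the library median), with genes ordered by the gap between the genotypes, from 1.12 for CG3397 at the top to 0.32 for CG43291 at the bottom. Circles are MEF2 RNAi flies and squares w1118 flies, filled with RU486 and open without. Each point is 1 library and there are no error bars. The circles of a gene lie to the right of its squares by the choice of the genes, and CycB has its circles farthest apart.

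Mef2 itself, the gene targeted by the RNAi, was at -0.20 and 0.07 in the MEF2 RNAi libraries with and without RU486, against 0.06 and 0.08 in the w1118 libraries with and without it. It was thus lowest in the library in which the hairpin was induced. The difference between genotypes was -0.26 with RU486 and -0.02 without it. As deposited its values were -0.38 and 0.25 in the MEF2 RNAi libraries, against 0.22 and -0.10 in the w1118 libraries, in the same order of treatments, and the differences were -0.60 with RU486 and 0.35 without it. The library with the induced hairpin was lowest on both scales, but the other 3 were close to each other only after the medians were subtracted. By the rule, each of the 29 genes was higher in the uninduced MEF2 RNAi library as well.

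The synaptic member was GluRIIC, an essential subunit of the glutamate receptor by which motor neurons drive fly muscle (chromosome 2L, 914086 to 917805 in BDGP6, with 11 exon blocks). It was at 0.40 and 0.54 in the MEF2 RNAi libraries with and without RU486, against -0.49 and -0.45 in the w1118 libraries with and without it. On this scale the genotypes were farther apart than the libraries within each, with a 1.85-fold difference with RU486 and a 1.99-fold difference without it. As deposited, the log2 difference between genotypes was 0.54 with RU486 and 1.36 without it. The deposited difference with minus without RU486 in MEF2 RNAi flies was -0.51. The other subunits of the same receptor did not share this pattern. The genotype difference was -0.24 for GluRIIA, -0.07 for GluRIIB, -0.11 for GluRIID and -0.10 for GluRIIE, and in GluRIIA, GluRIID and GluRIIE both MEF2 RNAi libraries lay below both w1118 libraries, as in 9.22% of all genes. As deposited these 3 were lower in the MEF2 RNAi library with RU486 and higher in the one without it, by 0.21 in GluRIIA, 0.32 in GluRIID and 0.20 in GluRIIE. None of the 10 muscle structure markers was a member. Their median genotype difference was -0.14, and in 2 of the 10 both MEF2 RNAi libraries were below both w1118 libraries, against 9.22% of all genes. Of 8 neuronal markers none was a member and 6 were lower in this sense, but 1 as deposited, where 3.51% of all genes were lower without overlap. The part of these marker differences in the GluRIIC values was not tested.

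Of the immune members, Listericin encodes an antibacterial peptide (chromosome 2R, 11241745 to 11242194). It was at 0.33 and 0.39 in the MEF2 RNAi libraries with and without RU486, against -0.36 and -0.35 in the w1118 libraries with and without it, which is 1.61-fold with RU486 and 1.67-fold without. On this scale the libraries of each genotype lay within 0.1 of each other. TotM, a secreted Turandot peptide induced by stress and infection (chromosome 2L, 5329857 to 5330464), was at 0.24 and 0.20 in the MEF2 RNAi libraries, against -0.19 and -0.24 in the w1118 libraries, in the same order of treatments. CG43202, now named BomT1, is a bomanin, one of the short peptides made under control of the Toll pathway, and it was the member with the smallest genotype difference. Its values were 0.16 and 0.17 in the MEF2 RNAi libraries with and without RU486, against -0.16 and -0.17 in the w1118 libraries with and without it. As deposited, before the medians were subtracted, its difference with RU486 was -0.023, so that its place in the set rests on that step.

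Other genes of the humoral response that the rule on symbols did not remove were described from a list. Of 29 that were measured, 3 were members, 13 were higher in both MEF2 RNAi libraries than in both w1118 libraries and 0 were lower, with a median genotype difference of 0.13. Without the 3 members, 10 of 26 were higher and the median was 0.12, against 9.45% and a median of -0.0069 in the whole table. As deposited, 4 of the 29 and 2 of the 26 were higher without overlap, against 3.31% of all genes. Among the Turandot genes, TotA and TotC were also higher without overlap, with genotype differences of 0.40 and 0.38. The difference was larger without RU486, at 0.64 for TotA and 0.65 for TotC, than with it, at 0.15 and 0.10. As deposited, the differences with RU486 were -0.19 for TotA and -0.24 for TotC, so both genes then overlap between genotypes. TotX overlapped between genotypes and TotB had a genotype difference of -0.0037. Of the 11 other annotated bomanin genes in the table, 3 were higher without overlap (0 as deposited), against 9.45% of all genes (3.31% as deposited). Their differences ran from -0.09 to 0.24 with a median of 0.11, below the 0.33 of CG43202. The 9 antimicrobial peptide genes that reached the limit of 0.3 but were left out by symbol had gaps from 0.30 for AttD to 0.98 for AttB. The lower end is set by that limit, and antimicrobial peptide genes below it are not described here. As deposited, the gaps of these 9 ran from -0.015 for Mtk to 0.88 for Def. Of 7 lysozyme genes 5 were higher without overlap (0 as deposited), against 9.45% of all genes (3.31% as deposited). Of 8 markers of fat body, the main source of humoral peptides, 1 was higher and 0 were lower without overlap, against 9.45% and 9.22% of all genes. Their median genotype difference was 0.10, which was -0.14 with RU486 and 0.26 without it. Their summed values were -0.39 and 1.46 in the MEF2 RNAi libraries with and without RU486, against -0.28 and -0.73 in the w1118 libraries with and without it. Of 7 hemocyte markers 2 were higher and 1 was lower without overlap, against the same shares of all genes. The hemocyte markers had a median of 0.0061, and their summed values were -0.08 and 0.05 in the MEF2 RNAi libraries, against 0.32 and -0.24 in the w1118 libraries, in the same order. The part of fat body and hemocyte RNA in the values of the immune members was not tested.

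A pair of secreted serine proteases belonged to the set. Easter (ea) is the protease that cleaves Spätzle, the ligand of the Toll receptor, when the dorsal-ventral axis of the embryo is laid down (chromosome 3R, 15328729 to 15330408). It was at 0.28 and 0.25 in the MEF2 RNAi libraries with and without RU486, against -0.28 and -0.25 in the w1118 libraries with and without it. On this scale the libraries of a genotype lay within 0.1 of each other, whereas the deposited difference with minus without RU486 was -0.33 in MEF2 RNAi flies and 0.31 in w1118 flies. CG9733, a serine protease of chromosome 3R (30243978 to 30246703), was at 0.21 and 0.33 in the MEF2 RNAi libraries, against -0.34 and -0.20 in the w1118 libraries, in the same order of treatments.

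The largest genotype difference of all 13012 genes was that of CG3397, an enzyme of the aldo-keto reductase family, which reduces aldehydes and ketones (chromosome 3R, 11983098 to 11984541). CG3397 was at 0.62 and 0.65 in the MEF2 RNAi libraries with and without RU486, against -0.50 and -0.76 in the w1118 libraries with and without it. The difference was 2.18-fold with RU486 and 2.67-fold without it, and the deposited values of the libraries did not overlap either, with a gap of 0.77. The adjacent genes CG12224 and CG18547 belong to the same enzyme family and to the set. CG12224 was at 0.38 and 0.36 in the MEF2 RNAi libraries with and without RU486, against -0.31 and -0.43 in the w1118 libraries with and without it. CG18547 was at 0.26 and 0.28 in the MEF2 RNAi libraries, against -0.11 and -0.42 in the w1118 libraries, in the same order of treatments. The genotype difference was thus 1.27, 0.74 and 0.53 in the 3 neighbours, and in each of them the w1118 library with RU486 was the higher of the w1118 libraries. As deposited, CG18547 differed between genotypes with RU486 by only 0.015.

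Enzymes with lipid or ester substrates made up another group. CG4757, of the carboxylesterase family (chromosome 3R, 11161207 to 11163498), was at 0.35 and 0.54 in the MEF2 RNAi libraries with and without RU486, against -0.54 and -0.34 in the w1118 libraries with and without it. The value was lower with RU486 in both genotypes on this scale, and the fold difference between genotypes was 1.85 with RU486 and 1.85 without it. As deposited, the log2 difference between genotypes was 0.54 with RU486 and 1.25 without it. CG9747, an acyl-CoA desaturase, which places a double bond into a fatty acid chain (chromosome 3R, 30185423 to 30191252), was at 0.21 and 0.42 in the MEF2 RNAi libraries with and without RU486, against -0.47 and -0.15 in the w1118 libraries with and without it. It too was lower with RU486 in both genotypes on this scale. CG8303, a fatty acyl-CoA reductase, which makes fatty alcohols (chromosome 2R, 16595028 to 16604373), was at 0.23 and 0.21 in the MEF2 RNAi libraries, against -0.24 and -0.19 in the w1118 libraries, in the same order of treatments. The annotation places CG5089 on the opposite strand, overlapping it.

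The desaturase genes beside CG9747 did not share its difference, with genotype differences of 0.02 for CG15531 and -0.04 for CG9743. Of 10 UDP-glycosyltransferase genes around CG4757, 0 were higher without overlap, against 9.45% of all genes, and their median was -0.05. A list of 28 measured genes of lipid droplets and sterols held no member, with 1 gene higher and 1 lower without overlap (9.45% and 9.22% of all genes) and a median of -0.0037. Of 20 detoxification genes outside the left-out families none was a member, and 3 were lower without overlap, against 9.22% of all genes. CG11893, of a family of kinases related to ecdysteroid kinase, was at 0.21 and 0.40 in the MEF2 RNAi libraries with and without RU486, against -0.32 and -0.28 in the w1118 libraries with and without it. The 13 family genes beside it on chromosome 3R had a median genotype difference of -0.13 and a range of -0.34 to 0.30, in which CG31436 was the highest.

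Transporters of the plasma membrane formed a smaller group. Zip89B, a zinc transporter (chromosome 3R, 16305758 to 16308700), was at 0.24 and 0.26 in the MEF2 RNAi libraries with and without RU486, against -0.25 and -0.24 in the w1118 libraries with and without it. The fold differences between genotypes were 1.40 with and 1.42 without the drug. As deposited, the log2 difference between genotypes was 0.14 with RU486 and 0.87 without it, so the even folds come from the subtraction of the medians. CG33296 and CG13793, adjacent genes of chromosome 2L, belong to the family of sodium-dependent neurotransmitter transporters. CG33296 was at 0.19 and 0.23 in the MEF2 RNAi libraries, against -0.17 and -0.25 in the w1118 libraries, in the order with and without RU486. CG13793 was at 0.15 and 0.30 in the MEF2 RNAi libraries, against -0.18 and -0.26 in the w1118 libraries, in the same order. The family genes beside CG13793 had smaller differences, 0.18 for CG13794, 0.03 for CG13795 and 0.04 for CG13796. CG18549, of the major facilitator superfamily, was at 0.17 and 0.20 in the MEF2 RNAi libraries with and without RU486, against -0.19 and -0.18 in the w1118 libraries with and without it.

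CycB, the mitotic cyclin that partners Cdk1 (chromosome 2R, 22803521 to 22806948), stood apart from the other members. It was at 1.08 and 0.00011 in the MEF2 RNAi libraries with and without RU486, against -0.71 and -0.36 in the w1118 libraries with and without it. A single library, MEF2 RNAi with RU486, carried most of its genotype difference, which was 3.45-fold with RU486 and 1.28-fold without. As deposited, its log2 difference between genotypes was 1.44 with RU486 and 0.73 without it. Relative to the library median, female germline markers shared the high CycB value in the MEF2 RNAi library with RU486. They did not share the CycB difference without RU486 on this scale. All 7 that were measured were highest in that same library, as were 2957 of all 13012 genes. Their summed values were 7.39 and -3.60 in the MEF2 RNAi libraries with and without RU486, against -2.18 and -1.56 in the w1118 libraries. The median difference between genotypes of these markers was 1.66 with RU486 and -0.34 without it, where CycB had 0.36. The subtraction of the medians changed every difference without RU486 by -0.37, so the minus sign of the markers rests on that step. As deposited, 1 of the 7 markers was higher without overlap, against 3.31% of all genes. Among them osk, whose RNA is laid into the oocyte, was at 1.56 and -0.79 in the MEF2 RNAi libraries, against -0.31 and -0.45 in the w1118 libraries, in the same order of treatments. Eggshell markers, also of the ovary, were more mixed. Of the 8 measured, 5 were highest in the MEF2 RNAi library with RU486, and their median genotype difference was -0.08. Their summed values were 1.25 and -1.96 in the MEF2 RNAi libraries with and without RU486, against -0.43 and 1.20 in the w1118 libraries. The part of ovary RNA in the CycB value was not tested.

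Members of unstated function included some of the clearest differences. CG34227, a short gene of 1 exon block (485 bases) on chromosome 2R at 11248126 to 11248610, was at 0.51 and 0.69 in the MEF2 RNAi libraries with and without RU486, against -0.69 and -0.49 in the w1118 libraries with and without it. Among the members it had the largest difference with RU486 after CycB, 2.30-fold, and 2.27-fold without RU486. Its deposited log2 difference between genotypes was 0.85 with RU486 and 1.55 without it. CG7296 (chromosome 2L, 10686124 to 10687066) was at 0.31 and 0.30 in the MEF2 RNAi libraries, against -0.28 and -0.33 in the w1118 libraries, in the order with and without RU486. CG42821 was at 0.19 and 0.48 in the MEF2 RNAi libraries, against -0.37 and -0.30 in the w1118 libraries, in the same order. In CG42821 the uninduced MEF2 RNAi library was the higher, whereas CG7296 hardly differed between treatments on this scale. CG32581, now named sordd2, was at 0.20 and 0.40 in the MEF2 RNAi libraries with and without RU486, against -0.37 and -0.22 in the w1118 libraries with and without it. CG17107 was at 0.32 and 0.17 in the MEF2 RNAi libraries, against -0.23 and -0.26 in the w1118 libraries, in the same order of treatments. The remaining genes of this kind (CG14191, CG42822, CG6553, CG9782, CG43291 and the noncoding CR44367) had genotype differences from 0.37 for CG42822 to 0.56 for CG14191. CG14191, on the X chromosome (19081665 to 19082566), was at 0.35 and 0.21 in the MEF2 RNAi libraries with and without RU486, against -0.36 and -0.19 in the w1118 libraries with and without it. On this scale the value with RU486 was the higher in MEF2 RNAi flies and the lower in w1118 flies, as deposited the reverse, and the genotypes were 1.64-fold apart with RU486 and 1.32-fold apart without it. CG42822, the neighbour of CG42821, was at 0.20 and 0.18 in the MEF2 RNAi libraries, against -0.18 and -0.19 in the w1118 libraries, in the same order of treatments.

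**Figure D2:**
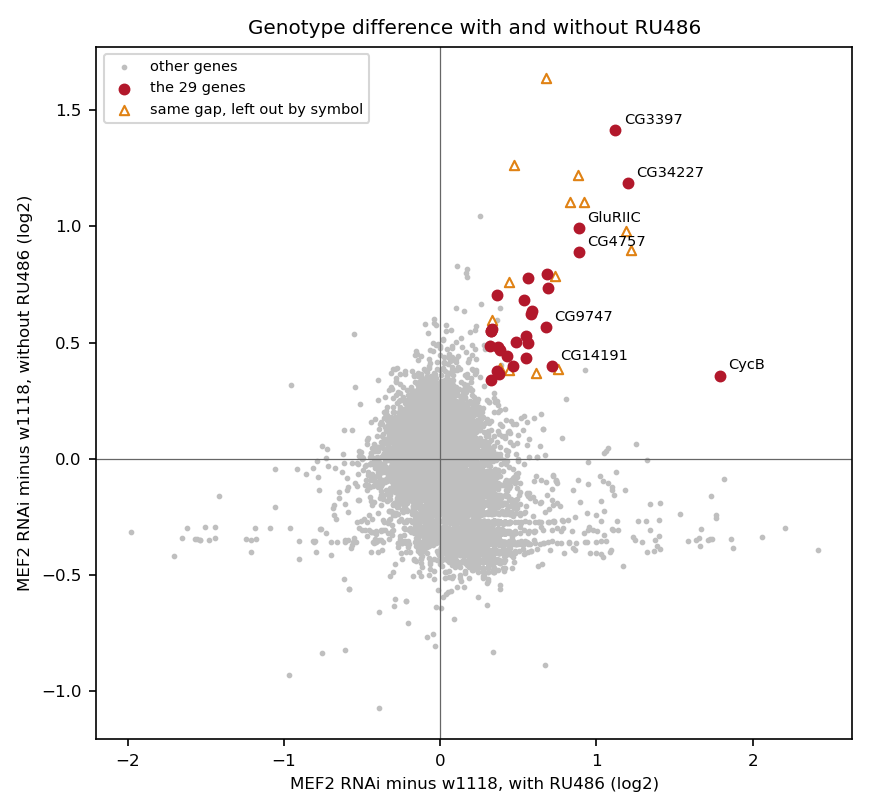
Difference of MEF2 RNAi minus w1118 (log2) with RU486 on the horizontal axis and without RU486 on the vertical axis, for the 29 genes (red), the 14 genes left out by symbol (open triangles) and all other genes (grey). CG3397 lies at 1.12 and 1.41 and CG34227 at 1.20 and 1.19, whereas CycB lies at 1.79 with RU486 and 0.36 without.

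Of the 29 members, 22 still carried a CG number as their symbol (75.9%, against 40.2% of the table), and 28 were protein-coding. All were matched to the annotation, 26 by current symbol and 3 by synonym. Their exons covered 390 to 3047 bases with a median of 1406 bases, against 1770 bases over all genes, and 9 of the 29 (31.0%) had under 1000 exon bases, against 24.3% of all genes. CG6553 and CR44367, an RNA annotated as antisense to it, overlap on opposite strands of chromosome 2R (13854578 to 13855894) and had the same 4 values. They were at 0.16 and 0.28 in the MEF2 RNAi libraries with and without RU486, against -0.16 and -0.27 in the w1118 libraries with and without it. Although the library kit was stranded, the use of strand in counting is not given in the sources used here, and this pair cannot be read as 2 independent genes. In the table, 15.1% of genes shared all 4 values with another gene.

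Positions in the genome were not part of the rule. Chromosome arm 3R held 13 members (44.8%, against 24.7% of all genes with a position), arm 2R held 7 (24.1%, against 20.6%), arm 2L 6 (20.7%, against 18.2%) and the X chromosome 3 (10.3%, against 16.1%). No member lay on arm 3L, which holds 19.6% of the genes, or on chromosome 4. Of the 10 genes that were lower in both MEF2 RNAi libraries by a gap of at least 0.3, 0 lay on 3R. Of these, 4 lay on 2L, 3 on 2R, 2 on 3L and 1 on the X. The share on 3R was 45.5% of 22 genes when 1 gene was kept for each group of neighbouring members, and 42.9% of the 7 genes with a gap of at least 0.5.

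**Figure D3:**
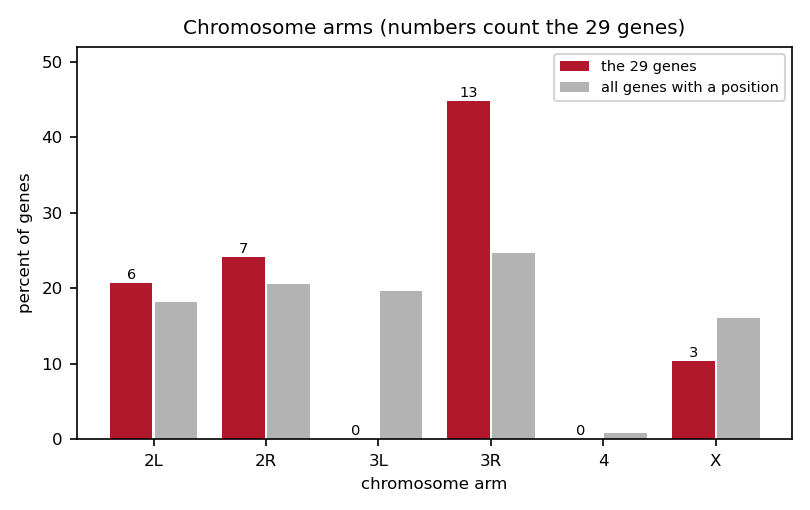
Percent of genes on each chromosome arm for the 29 genes (red, with their number above the bar) and for all genes of the table with a position (grey). The bars on 3R stand at 44.8% and 24.7%, and those on 3L at 0% and 19.6%.

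Members also lay beside each other. Of the 29, 13 were within 10 kb of another member, in 6 groups. Of the 10 genes lower in both MEF2 RNAi libraries by a gap of at least 0.3, 4 were that close to another of the 10. The aldo-keto reductase genes CG18547, CG12224 and CG3397 filled 5968 bp of 3R (11978574 to 11984541), all on the same strand. The genes next to them differed little between genotypes, by 0.03 for CR44135, 0.09 for CG10005 and -0.07 for mfas. Listericin and CG34227 were 5932 bp apart on 2R, and CG13226, which lies between them, had a genotype difference of 0.01. The transporter genes CG33296 and CG13793 covered 5490 bp of 2L (7713998 to 7719487). CG17107 and CG7296 covered 5165 bp of the same arm (10681902 to 10687066). CG42821 and CG42822 lay 262 bp apart on 3R, and the overlapping pair CG6553 and CR44367 made up the last group.

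The 122 other genes within 10 kb of a member had a median genotype difference of 0.0036. Of these, 11 (9.02%) were higher in MEF2 RNAi flies without overlap, close to the 9.45% of the whole table. As deposited, 8 of the 122 were, against 3.31% of all genes. Most neighbours thus did not share the difference of the members, while the highest reached 0.66.

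**Figure D4:**
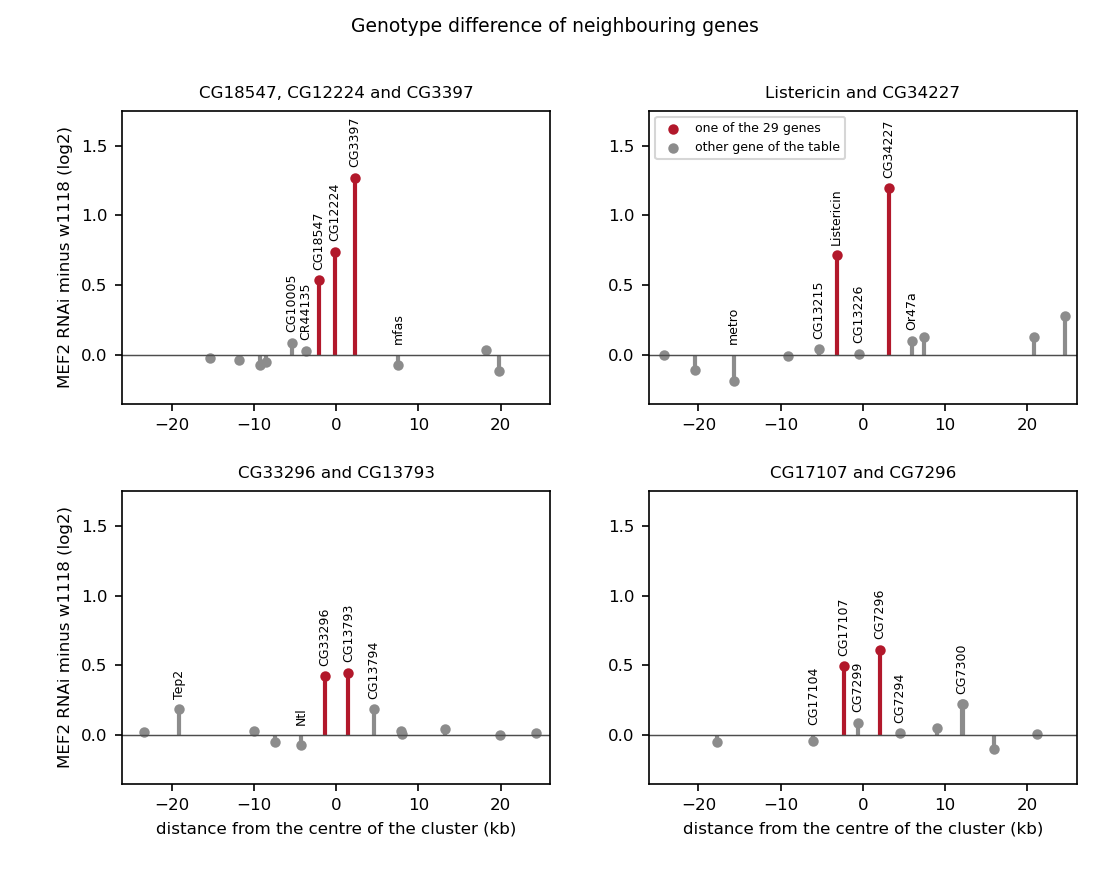
Genotype difference (mean of MEF2 RNAi minus mean of w1118, log2) of the genes around 4 groups of neighbouring members, against the distance from the centre of the group in kb. Red points are among the 29 genes and grey points are other genes of the table. CG18547, CG12224 and CG3397 stand at 0.53, 0.74 and 1.27, and mfas beside them at -0.07.

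RU486 feeding was not part of the contrast that chose the genes, although a large RU486 difference makes a gap between genotypes harder to reach. The difference between flies with and without RU486 had a median of -0.04 over the members in MEF2 RNAi flies (range -0.29 to 1.08) and of -0.0065 in w1118 flies (range -0.35 to 0.32). Over all genes the medians were -0.01 and 0.0068, with ranges of -1.59 to 2.74 in MEF2 RNAi flies and -1.56 to 1.98 in w1118 flies. With RU486, 1 member, CycB, was higher by at least 0.3 in MEF2 RNAi flies (21.4% of all genes) and 0 were lower by as much (4.67% of all genes). In w1118 flies 1 member, CG18547, was higher by at least 0.3 (3.74% of all genes), and 2, CycB and CG9747, were lower by as much (12.1% of all genes).

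Values of a genotype lay within 0.1 of each other in 14 members in MEF2 RNAi flies, in 16 in w1118 flies, and in 10 in both (14.2% of all genes). The rule itself favours such genes. As deposited, these counts were 0, 2 and 0, the last against 12.0% of all genes. On that scale, RU486-fed MEF2 RNAi flies had the lower value of their genotype in 28 of the 29 members. In 28 members RU486-fed w1118 flies had the higher value of theirs. The deposited library medians lay in the same directions, -0.18 and 0.19 in the MEF2 RNAi libraries with and without RU486, against 0.17 and -0.18 in the w1118 libraries. These counts are therefore not read as a trait of the members. The median deposited RU486 difference of the members was -0.40 in MEF2 RNAi flies and 0.34 in w1118 flies, so the differences with RU486 given here for the members hold relative to the library median only. Relative to the library median, the highest value was found in MEF2 RNAi flies without RU486 in 20 members and in those with RU486 in 9. Of all 13012 genes, 2957 were highest in MEF2 RNAi flies with RU486. The lowest value was found in w1118 flies with RU486 in 16 members and in those without in 13. Shares of all genes were not taken for the other counts here, so these are not read as particular to the members. CG42821 had the largest difference in the direction of lower values with RU486 in MEF2 RNAi flies, -0.29.

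**Figure D5:**
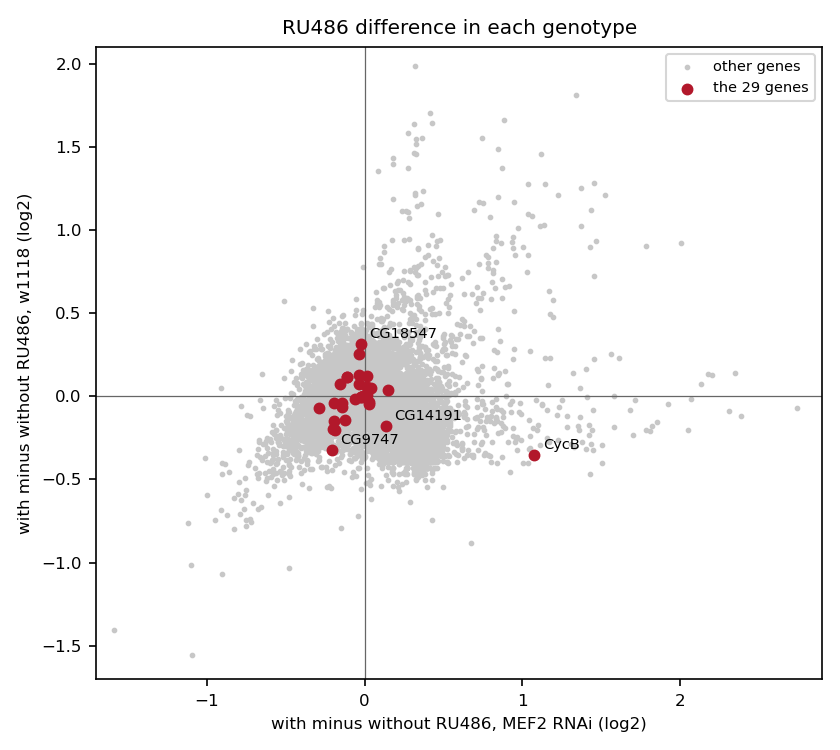
Difference of flies with minus without RU486 (log2) in MEF2 RNAi flies on the horizontal axis and in w1118 flies on the vertical axis, for the 29 genes (red) and all other genes (grey). CycB lies at 1.08 and -0.35, and the other members lie between -0.29 and 0.15 on the horizontal axis.

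The number of genes that passed depended on the scale and on the libraries. As deposited, 24 of the 29 had no overlap between genotypes, against 3.31% of all genes, and 9 kept a gap of at least 0.3. In the other 5 (CG13793, CG43202, CR44367, CG6553 and CG43291) the deposited difference with RU486 was between -0.026 and -0.015, whereas it was above 0 in 24 members and in 6.37% of all genes. Without RU486 the deposited difference was above 0 in all 29. With the median of 85 ribosomal protein genes as the reference level, all 29 stayed without overlap and 18 kept the gap of 0.3. When 1 library was left out, 101 genes passed without the MEF2 RNAi library with RU486, 279 without the MEF2 RNAi library without RU486, 56 without the w1118 library with RU486, and 64 without the w1118 library without RU486.

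The members just inside the limit were CG43291, CG9782, CG6553, CR44367 and CG43202, each with a gap of 0.32. Just outside were CG31469 with 0.29, Drsl4 with 0.29, CR45600 with 0.29, CG12256 with 0.28 and CG1673 with 0.28. No step in the gap separates these genes. Of the genes that the rule left out by symbol, w (white, an eye pigment transporter gene of which a short form is commonly used to mark fly transgenes) was at 0.12 and 1.03 in the MEF2 RNAi libraries with and without RU486, against -0.55 and -0.60 in the w1118 libraries with and without it.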

How the data were processed

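Total RNA of fly thoraces was sequenced by the authors after stranded library preparation (1 library per condition, 4 in all). The authors deposited log2 values of 13012 genes, centred per gene. How reads were aligned, counted and normalized, and on which build, is not given in the sources used here, and 0 columns of the table were left unused. Here the median of all genes was subtracted from each library and the gap between genotypes was taken with a minimum of 0.3. Folds are 2 to the power of a log2 difference. No test was made. The members and gene lists were chosen with earlier results of these data known. Genes named are Mef2, the 20 members with the largest gap, list or family members, members within 10 kb of another, the 5 on each side of the limit, and those with the largest RU486 differences. Genes beside members, other genes of a member's family, left-out genes and markers were named after their values were seen. Positions come from Ensembl release 115 (BDGP6), matched for 12959 genes (10792 by current symbol and 2167 by synonym), and may not be the authors' build. Alternatives were other reference levels (none, ribosomal protein genes, the middle 50% of genes), other gaps, and fewer genes or libraries. The code was tested on simulated data. Python 3.11.15, numpy 2.4.6, pandas 2.3.3 and matplotlib 3.10.9 were used.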

Additional observations from a re-analysis of the deposited data

Results flagged for a closer look

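In 4 members the difference between flies with and without RU486 was at least 0.1 in size and of opposite sign in the 2 genotypes. The share of all genes that meet this was not taken, so the count is not read as particular to the members. Each genotype had 1 library per treatment, so the difference between genotypes was not tested. For CycB it was 1.08 in MEF2 RNAi flies and -0.35 in w1118 flies. For CG14191 it was 0.14 in MEF2 RNAi flies and -0.18 in w1118 flies. For CG6553 and CR44367, which share all values, it was -0.11 in MEF2 RNAi flies and 0.12 in w1118 flies. These signs hold relative to the library medians. As deposited, the RU486 difference of CycB was 0.71 in MEF2 RNAi flies and -0.0040 in w1118 flies, that of CG14191 was -0.23 and 0.17, and that of CG6553 and CR44367 was -0.48 and 0.47, in the same order of genotypes.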

How the results depend on the processing

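The count of 29 genes fell to 12 (9 of the 29 and 3 others) with the values as deposited and to 19 (18 of the 29) with ribosomal protein genes as the reference, and was 30 with the middle 50% of genes. It was 52 at a gap of 0.2, 7 at a gap of 0.5, 157 with a genotype difference of at least 0.3 in place of a gap, 43 with no symbol left out, and 27 without genes of shared values. Leaving out 1 library gave 56 to 279 genes, since fewer values must then be apart. The median genotype difference of 0.53 was 0.54 as deposited, 0.53 with the middle 50% of genes and 0.47 with ribosomal protein genes. The direction of the genotype difference was kept by the 29 members and Mef2 under these 3 references. The share on 3R stayed between 42.9% and 48.1%. No paired test was made, because the genes were chosen on these same values. The differences between genotypes within each treatment are given as descriptions. Depth and level are unknown, so the precision of a value cannot be given.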
